A study of Mus musculus with 2 samples.

Results

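The 40 interleukin receptor genes of the mouse were taken as the protein-coding genes whose symbol starts with Il, a number and r, without Il1rn, among 21938 protein-coding genes of GENCODE release M21 on the mm10 assembly. They lie on 15 chromosomes, 5 of them on chromosome X, and were sorted here into 8 receptor families. Open chromatin at these genes was read from ATAC-seq of primary hematopoietic stem cells, an assay in which the Tn5 transposase cuts and tags accessible DNA. The study held 1 group of 2 libraries, biological replicates 1 and 2, each made from 50000 cells of adult C57BL/6J males of 5 to 6 weeks. No allele, treatment or other cell type was part of it, so the values below describe these cells and contain no contrast between conditions. The labels name separate biosamples with a single donor identifier, so the spread between the libraries may be technical, and how the cells were sorted is not given in the sources used here.

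Each library had a thresholded peak list, filtered by the authors on the reproducibility of peak ranks, with 25141 peaks in replicate 1 and 24495 in replicate 2. A less strict list from pseudoreplicates held 62918 and 64843 peaks. A peak carries a signal value from the authors' peak caller, whose median in the thresholded lists was 8.57 in replicate 1 and 9.65 in replicate 2. Because the lists differ in this way, each value is also given as a percentile, the rank of that peak within its own list. Replicate 1 is labelled with 2 sequencers and replicate 2 with none, so effects of replicate and sequencer cannot be told apart. A missing peak means that none was called at the threshold, and read depth behind the peaks is unknown. Of 10 blood stem cell markers, 5 had a thresholded promoter peak in both libraries (Kit, Hlf, Meis1, Cd34 and Flt3) and 9 had a less strict one. All 3 megakaryocyte markers (Itga2b, Pf4 and Gp9) had a thresholded one, against 0 of 4 B cell, 0 of 4 T and NK cell, 0 of 5 granulocyte and monocyte, 0 of 4 erythroid and 0 of 3 mast cell markers. In the less strict lists the counts were 0 of 4 for B cells, 0 of 4 for T and NK cells, 2 of 5 for granulocytes and monocytes, 1 of 4 for erythroid cells and 1 of 3 for mast cells. Over all protein-coding genes the shares were 42.5% in the thresholded and 59.5% in the less strict lists. The thresholded 5 of 10 for stem cell markers is near that share, and these short lists were not tested.

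Interleukin receptors are surface proteins through which blood cells read signals from other cells. Most are built of a chain that binds the ligand and a chain that several receptors share. The IL-1 and IL-17 families signal through adaptor proteins and kinases to NF-kB, and the other families signal through JAK kinases and STAT transcription factors. In hematopoietic stem cells, IL-1, IL-3 and IL-6 are known regulators of survival, division and lineage output, whereas many other members are best known from mature lymphoid and myeloid cells.

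The DNA under the peaks is shown first for the promoters with a thresholded peak that the text returns to. Each sequence is the 151 bp window around the replicate 1 summit, the point of strongest signal, or its longest stretch outside annotated exons. The letters are from GRCm38 and read 5′ to 3′ on the strand of the gene. Capitals mark matches to the consensus motifs listed further on.
Il12rb2, chr6:67376190-67376340, minus strand: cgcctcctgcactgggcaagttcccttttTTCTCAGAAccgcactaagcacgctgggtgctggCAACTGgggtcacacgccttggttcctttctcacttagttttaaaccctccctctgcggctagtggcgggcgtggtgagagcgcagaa
Il1r1, chr1:40224908-40225058, plus strand: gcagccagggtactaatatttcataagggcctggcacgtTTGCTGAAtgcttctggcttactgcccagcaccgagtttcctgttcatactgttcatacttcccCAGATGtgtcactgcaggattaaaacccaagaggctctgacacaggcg
Il18rap, chr1:40515267-40515361, plus strand: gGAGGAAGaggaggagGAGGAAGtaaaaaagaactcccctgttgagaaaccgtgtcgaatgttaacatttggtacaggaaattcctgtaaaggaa
Il7r, chr15:9529836-9529947, minus strand: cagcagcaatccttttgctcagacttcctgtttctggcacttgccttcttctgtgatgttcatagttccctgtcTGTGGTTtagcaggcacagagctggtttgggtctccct
Il2rg, chrX:101268256-101268318, minus strand: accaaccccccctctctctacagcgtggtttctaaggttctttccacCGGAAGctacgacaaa
Il3ra, chr14:14345695-14345845, plus strand: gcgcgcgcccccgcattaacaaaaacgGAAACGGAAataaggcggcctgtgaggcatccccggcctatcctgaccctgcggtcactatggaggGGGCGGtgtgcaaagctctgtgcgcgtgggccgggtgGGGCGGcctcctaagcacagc
Il12rb2 holds a STAT match and an E-box, Il1r1 a C/EBP match and an E-box, Il18rap a pair of PU.1-type ETS matches, Il7r a RUNX match, Il2rg an ETS match, and Il3ra an IRF match and a pair of SP/KLF matches. These are matches of letters and not measured binding.

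Below are 151 bp windows of 4 of the strongest distal regions, on the plus strand.
distal region in reach of Il17rb, chr14:29950928-29951078, plus strand: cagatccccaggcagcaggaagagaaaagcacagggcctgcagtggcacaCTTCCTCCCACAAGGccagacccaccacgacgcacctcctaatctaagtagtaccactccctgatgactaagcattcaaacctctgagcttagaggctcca
Il1rapl2 intron, chrX:137688097-137688247, plus strand: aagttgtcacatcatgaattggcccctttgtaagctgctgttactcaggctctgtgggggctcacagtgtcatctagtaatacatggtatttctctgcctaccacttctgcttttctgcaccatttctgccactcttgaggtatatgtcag
Il2ra intron, chr2:11664061-11664211, plus strand: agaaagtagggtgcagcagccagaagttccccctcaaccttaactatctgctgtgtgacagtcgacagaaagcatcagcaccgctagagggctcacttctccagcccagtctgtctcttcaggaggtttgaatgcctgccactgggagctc
Il1rap intron, chr16:26689849-26689999, plus strand: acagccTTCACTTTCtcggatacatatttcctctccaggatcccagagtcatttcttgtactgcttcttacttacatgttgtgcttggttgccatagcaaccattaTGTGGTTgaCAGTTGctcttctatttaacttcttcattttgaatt
The region in reach of Il17rb holds adjoining matches to the PU.1-type ETS and CTCF motifs. The Il1rap intron holds an IRF match, a RUNX match and an E-box within its window. The windows in Il1rapl2 and Il2ra hold no match to the 13 motifs searched, which says only that these letters are not in this window.

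Promoters were taken as the 1000 bp before and after every annotated transcription start site (TSS). In the thresholded lists 15 of the 40 genes (37.5%) had a promoter peak in both libraries, against 42.5% of all protein-coding genes. In the less strict lists the count was 22 of 40 (55%), against 59.5% of all genes. Both shares were thus near those over all genes. In 2 genes (Il17rb and Il17re, 5%) only replicate 1 had a thresholded promoter peak, against 4.72% of all genes. In 3 genes (Il20ra, Il27ra and Il5ra, 7.5%) only replicate 2 had one, against 2.99%. In 20 genes (50%) neither library had one, against 49.8%. In the less strict lists 14 genes had no promoter peak in either library, which is 35% of the members and 35% of all genes. All 15 genes open in both libraries had overlapping peaks at the same promoter.

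The promoter peaks of the 15 genes ranked low among promoter peaks. The median percentile was 46.0 in replicate 1 and 27.4 in replicate 2, against 71.5 and 66.5 for the 9329 genes with a promoter peak in both libraries. Percentiles were higher in replicate 1 in 12 of the 15 genes, while signal values were higher in 7 of 15. Over the 9329 genes, percentiles were higher in replicate 1 in 5914 and signal values in 3127. Across the 15 genes the log2 signal values of the libraries had a Pearson correlation of 0.897 and a Spearman correlation of 0.904, given as a description over genes that share both libraries. Across the 9329 genes both correlations were 0.852.

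**Figure D1:**
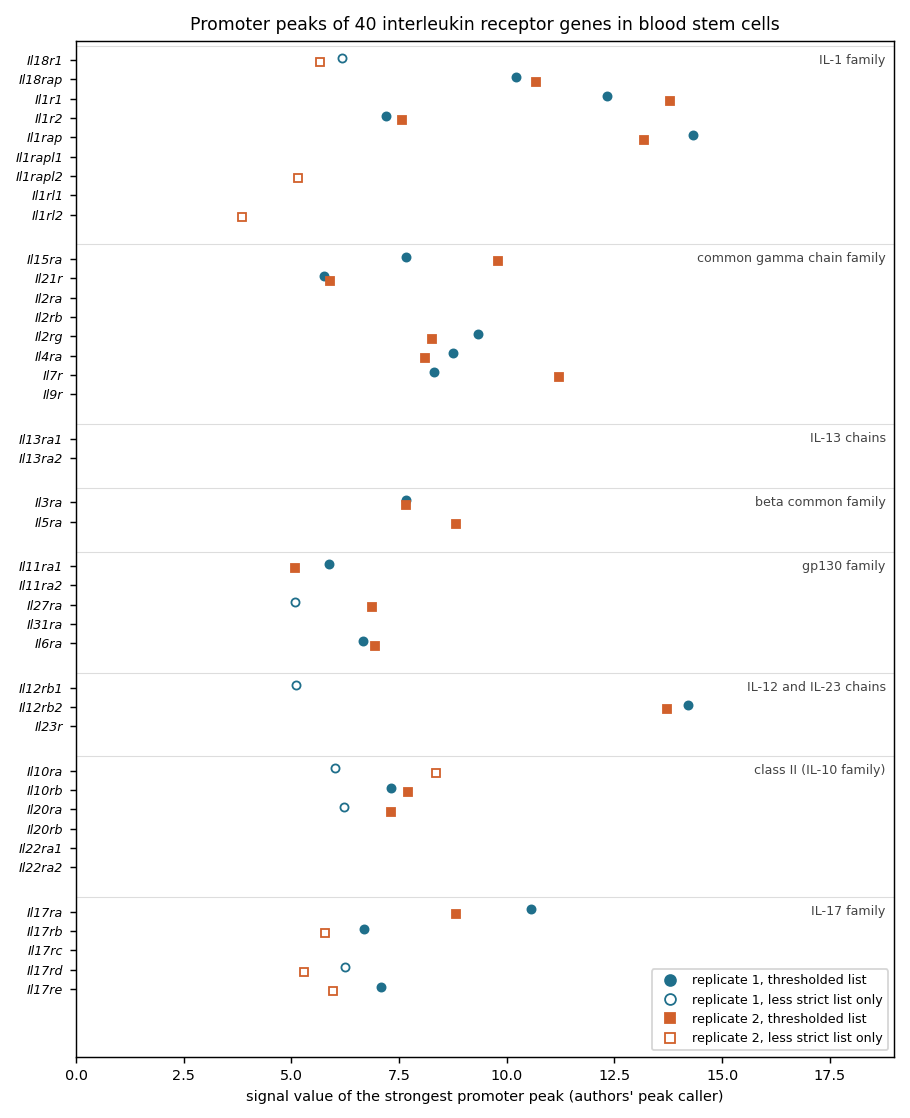
Signal value (horizontal axis, the peak caller's unit) of the strongest promoter peak of each of the 40 genes, grouped by family. Circles are replicate 1, squares replicate 2, filled from the thresholded and open from the less strict lists. Il12rb2, Il1rap and Il1r1 sit above 12 in both libraries, and 14 genes carry no symbol.

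In the IL-1 family 4 of 9 genes had a thresholded promoter peak in both libraries. Il1rap, the accessory chain that completes the receptors for IL-1, IL-33 and IL-36, had signal values of 14.3 in replicate 1 and 13.2 in replicate 2, at percentiles 95.6 and 86.7. Its peak (chr16:26581335-26582364 in replicate 1) spanned 1030 bp with 3 summits, the strongest 11 bp downstream of the first TSS. Il1r1, the signalling receptor for IL-1, had 12.3 and 13.8 at percentiles 87.6 and 90.1 (chr1:40224752-40225282). Its summits lay at -97 and -93 bp of the first start. Il18rap, the accessory chain of the IL-18 receptor, followed with 10.2 and 10.7 at percentiles 70.9 and 64.5 (chr1:40514808-40515577). Il1r2 encodes a decoy that binds IL-1 without signalling. Its peak had 7.20 and 7.57 at percentiles 26.9 and 17.1 (chr1:40084448-40085037) and lay at an internal start, 10538 bp into the gene in replicate 1.

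The other 5 genes of the IL-1 family had no thresholded promoter peak. Il18r1, the ligand-binding chain of the IL-18 receptor, had less strict peaks of 6.17 and 5.67. Il1rl2, the IL-36 receptor, had a less strict peak only in replicate 2, with a signal value of 3.86. Il1rapl2, a relative best known from neurons, also had one only in replicate 2, with 5.16. Il1rl1, the IL-33 receptor, and Il1rapl1, another neuronal relative, had none in either list. Il1rap and Il1r1, which together form the signalling IL-1 receptor, thus carried the strongest promoter peaks of the family, and the accessory chain of the IL-18 receptor had a higher signal value in both libraries than its ligand-binding partner.

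A cluster of 6 genes of this family lies on chromosome 1, with Il1r2, Il1r1, Il1rl2, Il1rl1, Il18r1 and Il18rap spanning 477.6 kb. With 50 kb added on either side, each library had 10 thresholded peaks there, of which 8 were shared and 3 of those were promoter peaks. Less strict peaks numbered 29 and 31. Between the start of Il1r1 and that of Il18rap there was no shared thresholded promoter peak, while single distal regions lay in Il1r1 (chr1:40271023-40271526, signal 5.69 and 6.70), in Il1rl2 (chr1:40355878-40356398, signal 7.11 and 7.19), upstream of Il1rl1 (chr1:40391414-40391748, 6.43 and 8.96) and 13.2 kb upstream of Il18rap (chr1:40501593-40502333, 8.22 and 8.88).

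**Figure D2:**
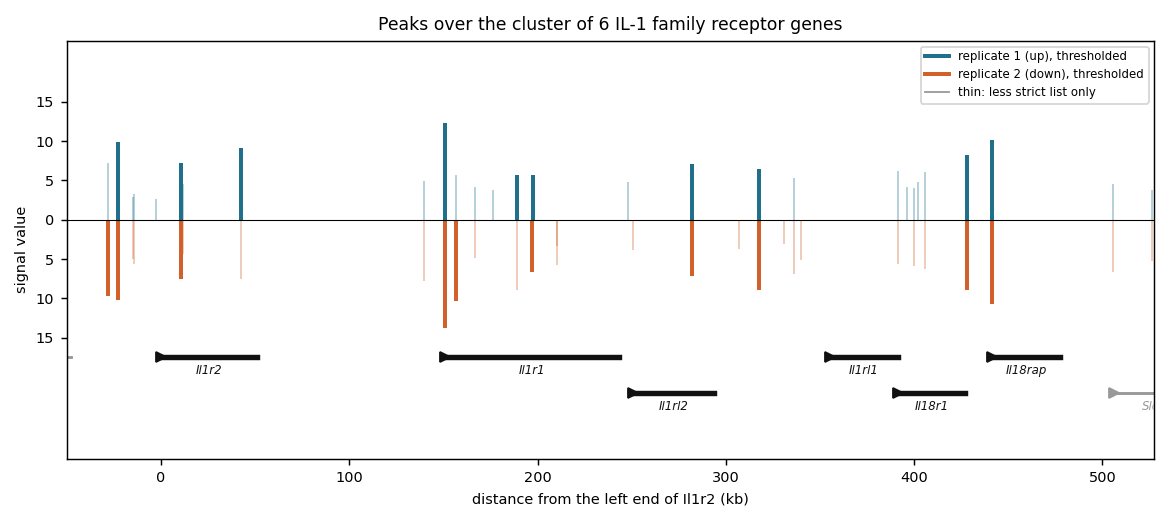
Peaks over the chromosome 1 cluster of 6 receptor genes, by distance in kb from the left end of Il1r2. Bars show the signal value of each peak, replicate 1 upward and replicate 2 downward, thick for thresholded and thin for less strict peaks, with genes and their direction below. The highest bars stand at the start of Il1r1, with 12.3 and 13.8.

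Of the 8 genes of the common gamma chain family, 5 had a thresholded promoter peak in both libraries. Il2rg, the shared gamma chain itself, had signal values of 9.34 and 8.26 at percentiles 60.5 and 27.4 (chrX:101268009-101268398). The predicted gene Gm20489 has a start within the same promoter window, so the peak cannot be given to 1 of them. Il7r, the IL-7 receptor needed for lymphoid development, had 8.32 and 11.2 at percentiles 46.0 and 70.5, with a standard deviation of 2.05 between the libraries, the widest of the 15. Il4ra, the chain for IL-4 and IL-13, had 8.76 and 8.11 at percentiles 52.9 and 25.2 (chr7:125552046-125552386). Il15ra, which presents IL-15 to neighbouring cells, had 7.67 and 9.79 at percentiles 35.2 and 52.5 (chr2:11705527-11706001), at the start of a noncoding transcript 474 bp inside the gene. Il21r, the IL-21 receptor, was near the bottom with 5.75 and 5.91 at percentiles 6.52 and 3.01 (chr7:125603326-125603709).

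A further 3 chains of the gamma family had no promoter peak in either list of either library. They were Il2ra (CD25, the high-affinity chain for IL-2), Il2rb (the chain that IL-2 and IL-15 share) and Il9r. The shared chain and the receptors for IL-4, IL-7, IL-15 and IL-21 thus had a promoter peak in both libraries, and Il2ra and Il2rb, the other chains of the IL-2 receptor, had none called. Both chains of the IL-13 pair, Il13ra1 and the decoy Il13ra2, also lacked a promoter peak in every list.

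Il3ra, the alpha chain that confers binding of IL-3, had a signal value of 7.66 in each library, at percentiles 35.1 and 18.2 (chr14:14345488-14345949 and chr14:14345453-14345987). Its strongest summits lay at -505 and -482 bp, farther upstream of the nearest start than those of the other 14 genes. Each library had 2 thresholded peaks over promoters of Il3ra, and only the stronger is described here. Il5ra, the receptor chain of eosinophils and some B cells, had a thresholded peak of 8.83 in replicate 2 alone, with its summit 1114 bp inside an internal start and so outside the window that the peak overlapped.

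In the gp130 family, Il6ra and Il11ra1 had thresholded promoter peaks in both libraries, 2 of 5 genes. Il6ra, the IL-6 binding chain, had 6.67 and 6.95 at percentiles 17.0 and 9.88 (chr3:89913099-89913458). Il11ra1, the IL-11 receptor, had 5.88 and 5.08 at percentiles 7.72 and 1.07 (chr4:41760322-41760718), at a start 60461 bp from its outermost annotated one. Il27ra had less strict peaks of 5.09 and 6.86, the latter also thresholded. Il31ra and Il11ra2 had none in any list, but both are hard to read: in the 2001 bp around the outermost start of Il11ra2, 0% of the 31-base words occur once in the genome, and for Il31ra 29.7% do. Around the outermost start of Il11ra1 the share is 17.7%, so a missing peak at that start is as hard to read. At the summit of each of the 15 open promoters the 31-base word was unique.

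Il12rb2, the signalling chain of the IL-12 receptor, had the highest mean percentile of the 40 genes. Its values were 14.2 and 13.7, a mean of 14.0 ± 0.339 (SD, n = 2), at percentiles 95.2 and 89.6 (chr6:67375896-67376692). The summits lay at -77 and -74 bp of the outermost start. Il12rb1, the chain it pairs with and which IL-23 also uses, had only a less strict peak of 5.11 in replicate 1, at -858 bp of an internal start. Il23r had none. The chains that complete a receptor for IL-12 therefore stood far apart in these lists, with the peak of Il12rb2 at the 98.1st and 96.1st percentile of the less strict lists and that of Il12rb1 at the 40.3rd in 1 library.

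Among the 6 class II receptors, Il10rb, the chain shared by IL-10, IL-22 and type III interferons, was the only one with a thresholded promoter peak in both libraries. It had 7.32 and 7.70 at percentiles 28.8 and 18.7 (chr16:91406065-91406332). Il10ra, the IL-10 binding chain, had less strict peaks of 6.02 and 8.35, the highest mean percentile of the 7 genes that only the less strict lists added, although in replicate 1 the value was below those of Il17re, Il17rb, Il17rd, Il20ra and Il18r1. Il20ra had 6.22 and 7.31. Il20rb, Il22ra1 and Il22ra2, the last a soluble protein that binds IL-22, had no promoter peak in either list. None of the other 5 class II genes, which include the IL-10 binding chain, had thresholded promoter peaks in both libraries.

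Il17ra, the chain that all IL-17 receptors share, was the 1 gene of 5 in its family with thresholded peaks in both libraries. They had 10.6 and 8.82 at percentiles 74.3 and 36.8 (chr6:120473420-120474081), at the start of a noncoding transcript 10390 bp inside the gene. No peak in the thresholded lists covered its outermost start, and with coding transcripts alone the gene was not counted. Il17rb, the IL-25 receptor, had 6.68 and 5.79, the first thresholded, in a window that also holds a start of Chdh. Il17re, the IL-17C receptor, had 7.09 and 5.97, again thresholded in replicate 1. Il17rd, a relative known to restrain growth factor signalling, had strongest less strict peaks of 6.24 and 5.30, which lay at different starts of the gene, while a weaker peak of replicate 1 overlapped that of replicate 2. Il17rc, the partner of Il17ra for IL-17A, had no promoter peak in either list within 1000 bp of a start, and had one in both thresholded lists with 2000 bp.

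Ordered by mean signal value, Il12rb2, Il1rap and Il1r1 had means of 14.0 ± 0.339, 13.8 ± 0.799 and 13.1 ± 1.05 (SD, n = 2) and their ranges overlapped, so their order is not resolved. Il18rap (10.5 ± 0.339) lay below all of them in both libraries, and its range overlapped those of Il7r (9.76 ± 2.05) and Il17ra (9.69 ± 1.24). At the other end Il21r (5.83 ± 0.112) and Il11ra1 (5.48 ± 0.568) overlapped each other and lay below Il6ra (6.81 ± 0.197) in both libraries. The 3 leading genes and Il18rap were the only ones of the 15 left when each list was limited to its 50% strongest peaks. The share of all genes left at that setting is not given here, so this drop has no background beside it.

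Distal regions were peaks with a summit over 1000 bp from every protein-coding TSS, shared by both libraries and within 50 kb of a TSS of a member. There were 45 in the thresholded lists, each counted once although 8 lay within reach of several members. They touched 29 of the 40 genes (72.5%), against 44.5% of all protein-coding genes. The mean was 1.33 ± 1.29 regions per member (SD over genes), against 0.738 ± 1.07 over all genes. In the less strict lists 123 regions touched 35 genes (87.5%), against 74.7% of all genes, with means of 3.53 and 2.45 per gene. A member was the closest gene to 27 of the 45 regions and to 75 of the 123. Of the 45, 23 were intergenic, 16 intronic and 6 exonic, and 16 lay inside a member.

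Distal regions were found around members with and without a promoter peak. Of the 15 members open at a promoter in both thresholded lists, 10 (66.7%) had a distal region, and of the other 25, 19 (76%) had one. Over all genes the shares were 53.6% and 37.9%. Genes without any distal region in the less strict lists were Il11ra2, Il13ra2, Il1rapl1, Il2rg and Il3ra, the last 2 of which had a promoter peak in both libraries.

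**Figure D3:**
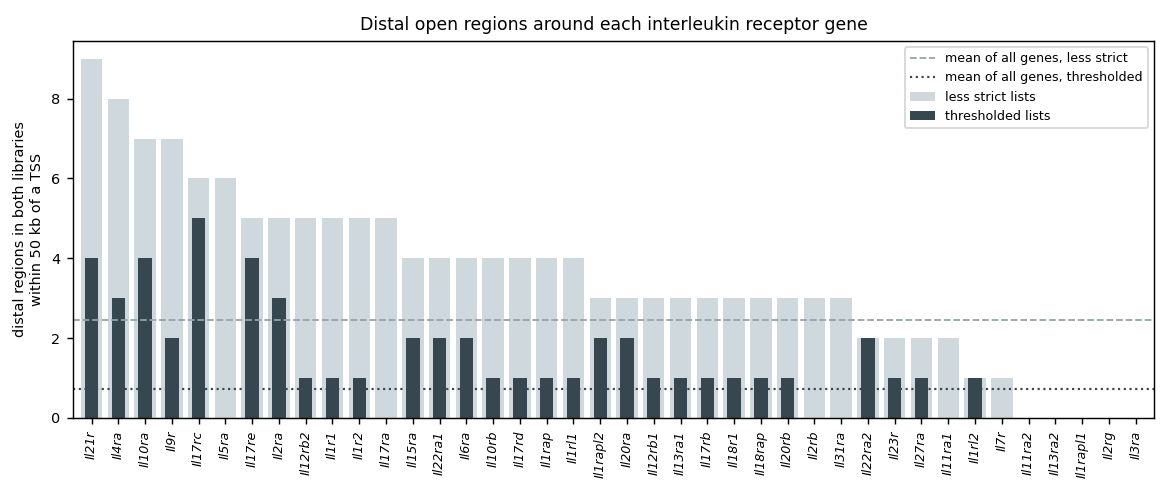
Number of distal regions in both libraries within 50 kb of a TSS (vertical axis) for each of the 40 genes, dark bars from the thresholded and light bars from the less strict lists. Lines give the means over all protein-coding genes, 0.738 and 2.45. Il17rc has 5 thresholded regions and Il21r 9 less strict ones.

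Il17rc had 5 thresholded regions, and Il10ra, Il17re and Il21r had 4 each. Il17re and Il17rc are neighbours on chromosome 6 and share regions. A pair of regions 2.18 and 1.83 kb upstream of Il17rc, in the last part of Il17re (chr6:113469101-113469395 and chr6:113469466-113469837), overlapped 1 and the same peak of replicate 2, with signal values of 9.67 and 6.99 in replicate 1 and 11.4 in replicate 2. Other regions of this pair lay closer to Jagn1, Creld1 and Emc3 than to a receptor gene. The 4 regions of Il10ra included one 5.215 kb upstream of its start (chr9:45274110-45274897), with 11.7 and 13.8 at percentiles 84.1 and 90.3. That region ranked above the promoter of Il10ra, whose peaks did not reach the thresholded lists.

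The strongest distal region by mean percentile (94.4) lay at chr14:29950806-29951187, 47.5 kb from a start of Il17rb and closer to Selenok, with 13.2 and 15.8. Next came introns of genes without a promoter peak in both libraries. In Il1rapl2, chrX:137687954-137688384 had 13.2 and 14.1 at percentiles 92.1 and 91.6. In Il2ra, chr2:11663962-11664297, 21.3 kb in from the first start, had 13.4 and 13.9 at percentiles 92.9 and 90.4. The sequences of all 3 windows are printed above. Il2ra had a further intronic region 10.7 kb in (chr2:11653348-11653711), with 10.7 and 12.5, and 1 region upstream (chr2:11637037-11637517), with 10.4 and 12.9. Its 3 regions thus had higher signal values in both libraries than the promoter peak of the neighbouring Il15ra, although Il2ra itself had no promoter peak.

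The remaining strong regions were spread over several families. Near Il27ra, chr8:84004525-84005183 had 14.5 and 12.1 but lay closest to 1700067K01Rik. Near Il21r, a region in an exon of Gtf3c1 (chr7:125643763-125644368) had 12.1 and 13.3, and an intron of Il21r itself (chr7:125630186-125630744) had 11.2 and 12.6. Both exceeded the Il21r promoter peak, at 5.75 and 5.91, in each library. In Il1rap, an intronic region 108.2 kb from the first start (chr16:26689731-26690167) had 11.1 and 14.3 at percentiles 79.3 and 92.2. A region beyond Il15ra (chr2:11739552-11739913) had 11.9 and 11.6 and was closer to Fbh1.

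**Figure D4:**
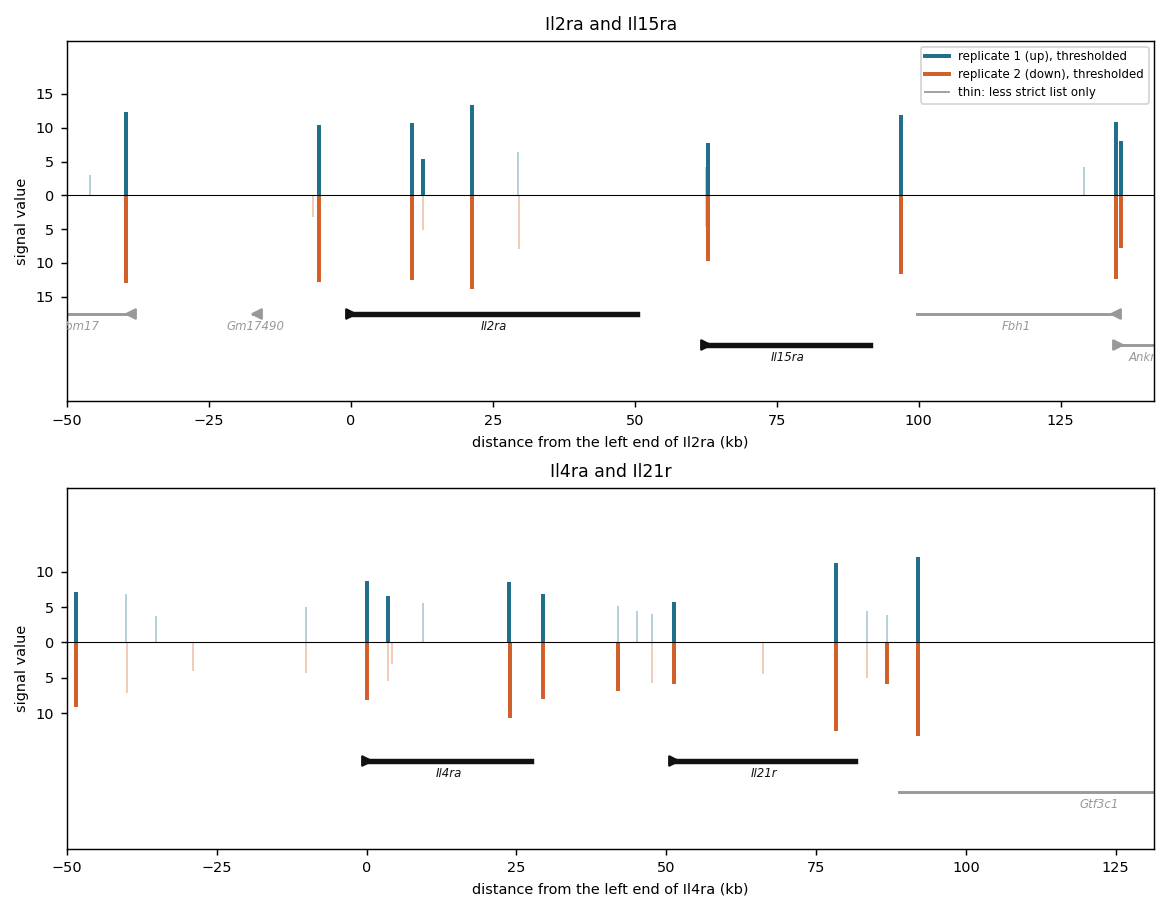
Peaks around Il2ra and Il15ra (top) and Il4ra and Il21r (bottom), by distance in kb from the left end of the first gene of each panel. Bars show the signal value, replicate 1 upward and replicate 2 downward, thick for thresholded and thin for less strict peaks, with receptor genes in black and other genes in grey. The 3 shared bars of Il2ra stand over or before the gene and none at its starts, and the highest bars near Il21r stand beyond its start.

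Promoter sequence was summarised by the CpG ratio, observed over expected CpG in the 2001 bp around the outermost start, and all genes were split into 3 equal classes by it. Of the 40 receptor genes 21 fell in the lowest class, 15 in the middle and 4 in the highest. In the lowest class 7 of 21 (33.3%) had a thresholded promoter peak in both libraries, against 10.9% of all genes in that class. In the middle class the share was 5 of 15 (33.3%), against 50.1%. In the highest class it was 3 of 4 (Il17ra, Il3ra and Il6ra), against 66.6%. The 7 open genes of low CpG ratio were Il11ra1, Il18rap, Il1r1, Il1r2, Il21r, Il2rg and Il7r. Since the class is set by the outermost start, it does not describe the internal starts at which Il11ra1, Il1r2 and, in the highest class, Il17ra had their peaks.

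**Figure D5:**
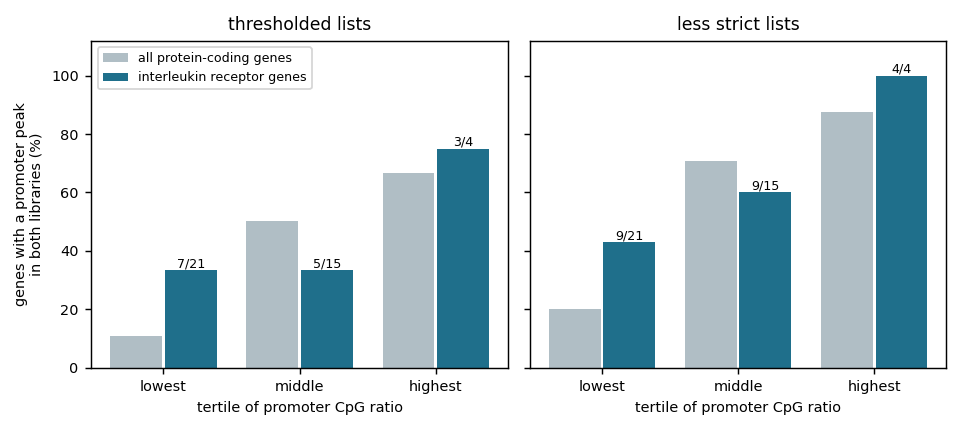
Share of genes with a promoter peak in both libraries (vertical axis, percent) in each class of promoter CpG ratio, grey for all protein-coding genes and blue for the receptor genes, from the thresholded (left) and less strict lists (right). Fractions above the blue bars are counts of receptor genes. In the lowest class the blue bar stands at 33.3% and the grey at 10.9%.

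Consensus motifs were searched on both strands of the 151 bp summit windows of the 15 promoters and, for comparison, of 8903 promoter windows of all genes. Median GC was 60.3% in the receptor promoters and 63.6% in all, and the median number of CpG was 6 and 11. The E-box CAGNTG was in 6 receptor promoters (40%), Il11ra1, Il12rb2, Il17ra, Il1r1, Il1rap and Il21r, against 22.9% of all promoter windows. GGGCGG, the SP/KLF box, was in 4 (26.7%) against 52.5%, and the ETS site CGGAAG in 1 (6.67%), Il2rg, against 25.2%. GAAANNGAA (IRF) was in Il15ra, Il1rap and Il3ra, 20% against 2.89%. TGTGGTT (RUNX) was in Il18rap and Il7r, 13.3% against 2.58%, and TTGCNNAA (C/EBP) in Il17ra and Il1r1, 13.3% against 4%. GAGGAAG (PU.1-type ETS) was in Il18rap, TTCNNNGAA (STAT) in Il12rb2 and CCACNAGG (CTCF) in Il17ra, each 6.67%, against 9.84%, 3.13% and 4.01%. The motif AGATAA of GATA factors, the AP-1 motif TGANTCA, the NF-kB motif GGGANTTTC and the NRF1 motif GCGCATGCG were in none of the 15, and in 1.89%, 2.73%, 0.438% and 2.11% of all. With 15 windows each gene moves a share by 6.67 percentage points.

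In the 45 distal windows the CTCF consensus was in 9 (20%), against 7.94% of 10824 distal windows shared by both libraries over the genome. They lay in reach of Il4ra, Il21r, Il9r, Il17rb, Il17rc, Il17rd and Il27ra. The pair near Il17rc overlapped a single peak of replicate 2. Those in reach of Il4ra, Il17rb and Il27ra, and the Gtf3c1 exon near Il21r, were closer to genes outside the rule. The PU.1-type ETS site was in 10 (22.2%) against 22%, the E-box in 15 (33.3%) against 40.4%, and the RUNX site in 3 (6.67%) against 13.8%. IRF matches stood in 4 (8.89%) against 5.98%, among them the Il1rap intron and the region upstream of Il2ra. C/EBP matches were in 6 (13.3%) against 7.22%, and SP/KLF matches in 5 (11.1%) against 9.43%. ETS matches were in 4 (8.89%) against 7.67%, and STAT matches in 2 (4.44%) against 3.49%. AP-1 matches were in 3 (6.67%) against 8.52%, and GATA matches in 1 (2.22%) against 6.36%. NF-kB and NRF1 matches were in none, against 0.351% and 0.194%. Median GC was 53.6% in these windows and 52.3% in all.

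Of the genes that work with these receptors but fall outside the naming rule, 30 of 74 (40.5%) had a thresholded promoter peak in both libraries, against 42.5% of all protein-coding genes, and 45 (60.8%) a less strict one, against 59.5%. The pooled shares are near the background, but they join lists that lie on either side of it. The thresholded share was 12.8% of the 39 ligand and antagonist genes and 50% of the 10 partner chains. It was 75% for the JAK, 85.7% for the STAT and 80% for the IL-1 and IL-17 signalling lists, with no test made. Among 10 partner chains 5 had a thresholded peak. Il6st, which encodes gp130, the shared chain for IL-6 and IL-11, had 11.6 and 11.3 at percentiles 83.1 and 71.6, higher in both libraries than the 6.67 and 6.95 of Il6ra. Csf2rb, the beta common chain with which Il3ra signals, had 7.16 and 8.10. Sigirr, an inhibitory member of the IL-1 receptor family, had 8.34 and 9.63, and Csf2ra, the alpha chain for GM-CSF, had 8.24 and 8.50. Ifnlr1, the specific chain of the type III interferon receptor, had no promoter peak in either list.

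The lists of genes that act downstream of the receptors are short, and their counts stand beside the same 42.5% (thresholded) and 59.5% (less strict) of all genes, with no test of a difference. Of 4 JAK kinases 3 had a thresholded peak in both libraries. Jak1 had 14.6 and 14.0 at percentiles 96.3 and 90.9, and Tyk2 had 11.1 and 11.2 at percentiles 79.0 and 69.9. Jak3 was near the bottom of the lists with 4.96 and 5.27 at percentiles 2.26 and 1.36. Jak2 had less strict peaks only. Of 7 STAT factors 6 had one, led by Stat2 at 17.8 and 18.2, with Stat5b the exception. Of 10 genes of IL-1 receptor signalling 8 had one, including Irak2 (15.9 and 14.5), Traf6 (17.1 and 13.6) and Irak4 (13.0 and 14.6), and all 10 had less strict ones. Of 5 genes of IL-17 receptor signalling 4 had one, among them Traf2 (12.2 and 14.7), while Tbk1 had a less strict peak in replicate 1 alone.

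Of 39 interleukin ligand and soluble antagonist genes 5 (12.8%) had a thresholded promoter peak in both libraries, Il7, Il15, Il16, Il17b and Ebi3, and 14 (35.9%) a less strict one. The shares over all protein-coding genes were 42.5% and 59.5%, with no test of a difference. Il16 had 8.82 and 10.7, and Il17b 9.07 and 10.2. Il7, whose receptor Il7r was also open, had 8.32 and 9.15 at percentiles 46.4 and 42.4. Il15, the ligand of Il15ra, had 5.97 and 5.78 at percentiles 8.47 and 2.57. Il1a, the ligand of Il1r1, and Il3, the ligand of Il3ra, had no promoter peak in either list, and Il1b had a less strict one in replicate 1 alone.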

How the data were processed

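ATAC-seq peak lists of 2 libraries of hematopoietic stem cells were analysed. The deposited narrowPeak lists give a signal value per summit, assigned by the authors' peak caller, whose name and scale, like the aligner, were not given in the sources used here. Assembly is mm10, per the labels, and the reference was GRCm38. Transposase offset and mitochondrial reads are likewise not described there. Per the deposited file notes, series-level lists combine the libraries.

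Intervals listed once per summit were collapsed to their strongest summit. Promoters were the 1000 bp before and after every TSS in GENCODE M21, and a gene was counted when each library had a peak overlapping a promoter by at least 1 bp. Shared distal regions were replicate 1 peaks overlapping a replicate 2 peak by at least 1 bp. Percentiles are ranks of the signal value within a list. Receptor genes were matched by symbol to RefSeq promoters (33 of 40, GRCm38.p6), and sequences were read from the genome. With 1 group, no test between conditions exists and none was made over the list: counts stand beside those of all genes. The assignment of peaks was tested on simulated data, with peaks planted only at genes far from other genes and away from window edges. Gene clusters, regions shared by neighbours and peaks at a window edge were not covered by it. Python 3.11.15, pandas 2.3.3 and pysam 0.24.0 were used.

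The genes, families, lists, motifs and alternatives were chosen with earlier results of these data known. The rule for named genes was to name every receptor gene, with values for those with thresholded promoter peaks in both libraries, the members with most distal regions, the 10 strongest distal regions, and up to 3 genes with the highest percentile and 3 without a peak from each other list; Csf2rb, Jak2, Stat5b, Il15, Ebi3, Il1a, Il1b and Il3 were named after their values were seen. Alternatives were other windows, starts, overlaps, lists and each library alone. Ranked and replicated lists were not used here. The values of 1 gene of the partner chain list are not reported here.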

Additional observations from a re-analysis of the deposited data

How the results depend on the processing

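The count of 15 receptor genes with a thresholded promoter peak in both libraries was 15 with 500 bp and 16 with 2000 bp windows, 12 with the outermost start alone (without Il11ra1, Il17ra and Il1r2), 21 and 22 in the series-level lists, and 4 with the 50% strongest peaks. With a single library it was 17 to 18, and 23 to 25 against 22 in the less strict lists. The series-level counts of 21 and 22 are 52.5% and 55% of the receptor genes, against 53.4% and 56.3% of all genes. For the other windows, the outermost start, the 50% strongest peaks and single libraries, the share over all genes is not given here. The 45 thresholded distal regions became 19 within 20 kb, 27 where a member is the closest gene and 22 with the 50% strongest peaks, and ranged from 56 to 61 with a single library. The 123 less strict ones became 62 and 75 in the first 2 of these cases and 153 to 162 with a single library. The median over the open genes of the mean percentile was 43.8 in the thresholded and 77.0 in the less strict lists, which hold more weak peaks. The pathway count of 30 was 45 in the less strict lists and 30 and 31 with the other windows. No paired analysis was possible because the libraries form 1 group. Depth is unknown from peak lists, so genes without a peak cannot be separated from genes below the threshold.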

Other observations

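A less strict distal region 11.8 kb into Il1rapl2 had signal values of 9.45 in replicate 1 and 15.9 in replicate 2. A region 37.8 kb from Il9r, which had no promoter peak, had 11.4 and 10.8 in the thresholded lists. Il9r had 7 less strict distal regions. Il5ra had 6, of which 1 is the same replicate 2 peak that was counted as its promoter peak, because the replicate 1 peak there (chr6:106743830-106744108, 4.54) ended just outside the promoter window. The series-level thresholded list, made from both libraries together, added Il10ra, Il17rb, Il17re, Il20ra, Il27ra and Il5ra to the 15 genes and lost none.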
